A study of Mus musculus with 2 samples.

Results

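The genes for the subunits of the proteasome were compared between primitive and maturing haematopoietic stem cells (HSC) of mouse bone marrow. Members were all genes whose symbol begins with Psma, Psmb, Psmc, Psmd or Psme followed by a number, taken from probe sets with a single gene symbol. Of 12393 such genes on the array, 41 were members. They had 74 probe sets, of which 58 were measured, that is, above a floor on at least 1 array. Of the 41, 8 were Psma genes, 10 Psmb, 6 Psmc, 14 Psmd and 3 Psme. Psme2 was not a member, because its probe set also carries a second symbol.

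The proteasome degrades proteins that have been tagged with ubiquitin. Its barrel-shaped core particle is built from rings of alpha (Psma) and beta (Psmb) subunits, and some beta subunits cut the substrate inside the barrel. A regulatory particle on the end of the barrel holds a ring of ATPases (Psmc), which unfold the substrate, and non-ATPase subunits of its base and lid (Psmd), which bind ubiquitin and remove it. The Psme genes encode other caps that open the barrel without ATP. In blood cells and under interferon, the catalytic beta subunits can be replaced by those of the immunoproteasome, which favours peptides for presentation on MHC class I molecules.

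Each population was 1 sample on 1 Affymetrix array. Per the labels, both samples were sorted by flow cytometry from mouse bone marrow after a short culture, and neither was treated. The strain, the age of the mice, the sorting markers and whether animals were pooled are not stated in the labels. Each array was hybridised with labelled RNA made from a cloned and amplified cDNA library, so a value is the share of a transcript in that library, and fewer cells that express a gene cannot be told apart from less of its RNA per cell. There were no replicates and no test between the populations was possible. A ratio below is the log2 of the MAS5 intensity in the primitive sample over that in the maturing sample, so positive values are higher in the primitive sample, and every ratio describes these libraries only.

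Intensities had medians of 425.4 (primitive) and 454.8 (maturing), and values under 441.0 were set to that floor. A gene above the floor on only 1 array has a bound in place of a ratio, which enters counts and medians as it stands. Of the listed genes of stem cells, 10 of 10 were measured, and 6 were above the floor on each array. Of the 10, 6 had a ratio above 0, with Procr the highest (2.61), and 4 had one below 0. Those 4 were Kit (-0.41), Hlf (-1.25) and, at bounds, Meis1 (-1.44) and Tek (-1.15). Summed intensities of marker lists for other cells were also unequal, and members of a list did not all go the same way. They were 59496 in the primitive and 13923 in the maturing sample for 13 T and natural killer cell genes, most of it from Ccl5 (37795 and 1511) and Cd3d (8673 and 44.2). Of the 9 measured, 6 were above 0, and Nkg7 (-0.33), Gzmb (-0.65) and Cd8a (a bound of -0.87) were below it. The sums were 118701 and 63908 for 11 neutrophil genes, with S100a8 and Camp the main contributors. Of the 11, 7 were above 0, and 4 (Mpo, Csf3r, Ltf and Ctsg) were at least 2-fold higher in the maturing sample. The sums were 9337 and 5011 for 11 macrophage and dendritic cell genes (7 of 8 measured above 0) and 2828 and 7310 for 9 B cell genes (2 of 7 above 0). Of these, Cd2, Cd3e, Cd3g, Cd4, Pax5, Blnk, Itgax, C1qa and C1qc were under the floor on both arrays. The part of such cells in the ratios below was not tested. The added hybridisation controls, 18 bacterial and phage probe sets, also read brighter on the primitive array, with a median ratio of 0.97, which bears on the direction of all ratios.

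All 41 genes were above the floor on at least 1 array, and 35 were above it on both. The 6 that were not, Psma8, Psmd4, Psmd5, Psmd13, Psme3 and Psme4, were all at the floor on the primitive array. Of all 12393 genes, 8852 were above the floor on at least 1 array and 5525 on both. How all genes at the floor on 1 array split between the arrays is not given here. Of the 41, 22 had a ratio above 0, where 52.7% of the 8852 measured genes did, and 19 had one below 0, against 47.3%. At least 2-fold higher in the primitive sample were 8 members (19.5%), against 15.6% of all measured genes, and at least 2-fold higher in the maturing sample were 9 (22.0%), against 17.6%. At 4-fold the counts were 2 (Psmc3 and Psmd10), against 3.45% of all genes, and 3 (Psmd5, Psmd6 and Psme4), against 4.69%. By these counts the members stood close to all genes, with a median ratio of 0.47 against 0.07, and their classes differed. The median was 0.69 for Psma, 0.75 for Psmb, 0.23 for Psmc, -0.57 for Psmd and -1.77 for Psme. With the arrays scaled to the hybridisation controls, 2 members (4.88%) were at least 2-fold higher in the primitive sample, against 4.22% of all genes, and 18 (43.9%) in the maturing sample, against 39.6%. All genes moved with them, to a median of -0.74. On that scale the medians were -0.28, -0.22, -0.74, -1.46 and -2.28, so the signs for Psma, Psmb and Psmc turned, while Psma and Psmb stayed above the median of all genes.

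**Figure D1:**
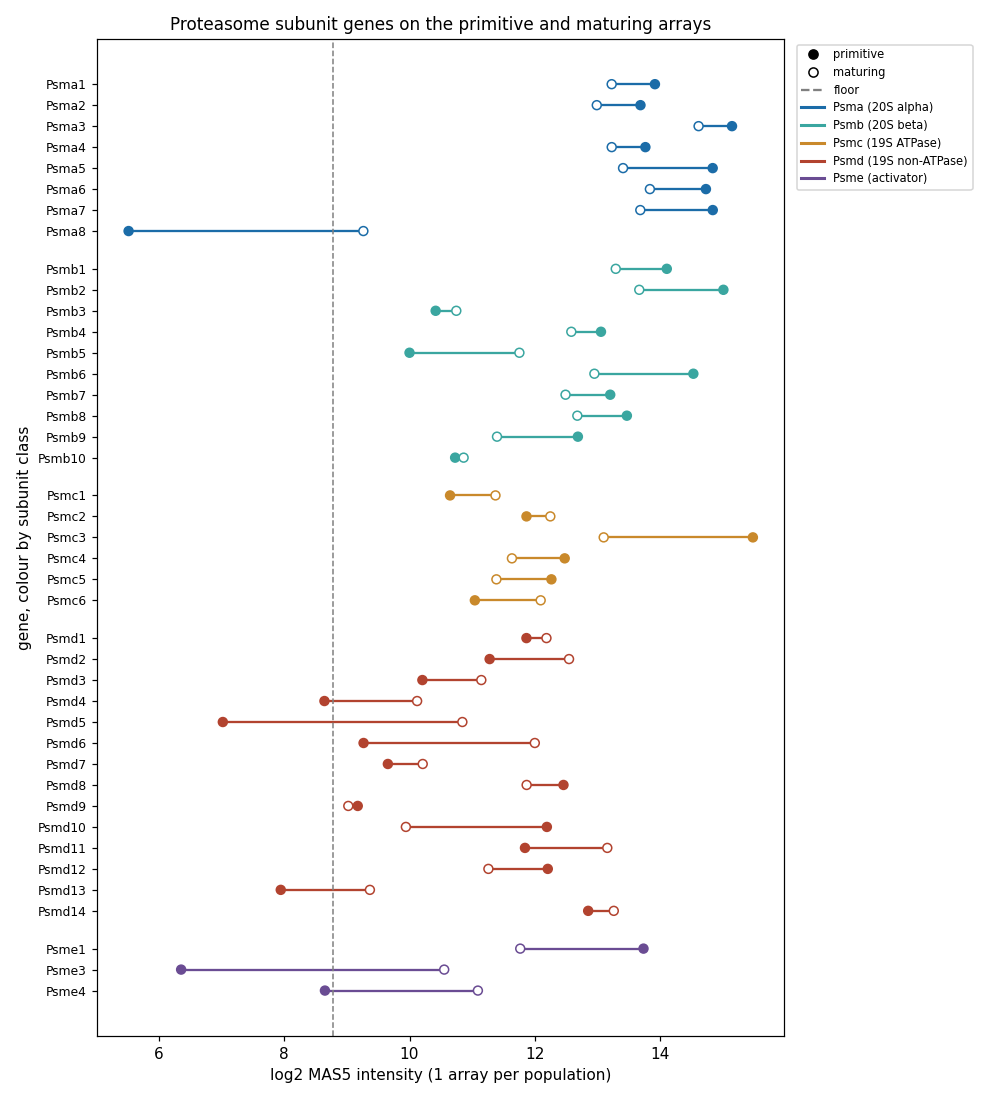
Log2 MAS5 intensity of each of the 41 subunit genes on the primitive array (filled circles) and the maturing array (open circles), by subunit class, with the floor of 441.0 as a dashed line. The filled circle lies to the right of the open one for 7 of 8 Psma genes and 7 of 10 Psmb genes, and to its left for 10 of 14 Psmd genes.

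Of the 8 alpha ring genes, 7 read higher in the primitive sample, with Psma8, a gene of low signal, the exception; under other scalings fewer did. Alpha subunits form the outer rings of the barrel and its gate, and each ring needs 1 copy of every subunit. Psma5 read 29424 in the primitive and 10903 in the maturing sample, a ratio of 1.43, and its second measured probe set gave 1.71. Psma7 read 29448 and 13197, a ratio of 1.16, and its second probe set gave 0.28. Psma3 read 36445 and 25170, a ratio of 0.53. Psma1, Psma2, Psma4 and Psma6 lay between 0.54 and 0.90, and all 3 measured probe sets of Psma6 lay between 0.90 and 1.02. The remaining member, Psma8, which replaces Psma7 in germ cells, read 45.6 in the primitive and 614 in the maturing sample, and was at least 1.39-fold higher in the maturing sample. Without it, the 7 ratios had an SD of 0.34, against an SD of 1.07 over all 5525 genes above the floor on each array. The 7 read 1.45-fold to 2.70-fold higher on the primitive array. Psma3 turned to -0.20 after quantile normalization and to -0.22 after lowess. On the scale of the hybridisation controls, Psma5 (0.46) and Psma7 (0.18) were above 0, and Psma1, Psma2, Psma3, Psma4 and Psma6 were below it, at -0.28, -0.28, -0.44, -0.44 and -0.08, each still above the median of all genes there.

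The beta ring was less uniform. Psmb6 and Psmb5, both catalytic, stood at its ends. Psmb6, the caspase-like subunit, read 23753 in the primitive and 7936 in the maturing sample, a ratio of 1.58. Psmb5, the chymotrypsin-like subunit that is the main target of bortezomib, read 1024 and 3459, a ratio of -1.76. It was the only Psmb gene at least 2-fold higher in the maturing sample, and it has a single probe set, so no second measurement stands beside it. Psmb7, the trypsin-like subunit, read 9459 and 5765, a ratio of 0.71. Of the structural beta subunits, Psmb2 read 33130 and 13048 (1.34), Psmb1 had a ratio of 0.82, Psmb4 of 0.47 and Psmb3 of -0.33. The second measured probe set of Psmb1 went the other way, at -0.20, and that of Psmb4 stood at 0.33. On the scale of the hybridisation controls, 3 of the 10 Psmb genes were above 0, namely Psmb2 (0.37), Psmb6 (0.61) and Psmb9 (0.32). Of all measured genes, 19.95% were above 0 on that scale.

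The genes that replace the catalytic subunits in the immunoproteasome were also measured. Psmb8, which replaces Psmb5, read 11373 in the primitive and 6570 in the maturing sample, a ratio of 0.79. Psmb9, which replaces Psmb6, read 6611 and 2699 (1.29). Psmb10, which replaces Psmb7, read 1697 and 1865 (-0.14). The difference between the ratios of 2 genes does not depend on a common scaling of the arrays. Psmb8 minus Psmb5 was 2.55, which is a shift of 5.85-fold in their relative signal toward Psmb8 in the primitive sample. Psmb9 minus Psmb6 was -0.29 and turned to 0.12 and 0.17 after quantile normalization and lowess. Psmb10 minus Psmb7 was -0.85. The 3 exchange pairs thus gave unlike values, but each of their genes has a single probe set. Probe sets of 1 gene differed with an SD of 0.82, so differences of -0.29 and -0.85 are no larger than or close to that spread. With only probe sets for 1 transcript, Psmb8 minus Psmb5 had no value. These contrasts were chosen after the values had been seen.

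The promoters of this pair and of Psmb6 are shown so that catalytic genes with ratios on either side of 0 can be read beside their upstream sequence. Each is the 250 bases before the start of the gene from RefSeq (GRCm38.p6), 5′ to 3′ on the strand of the gene. The capitals in the first and second mark TGACNNNGC, the core of the antioxidant response element, to which NFE2L1 and NFE2L2 bind with small MAF proteins and through which they raise the transcription of proteasome genes. The capitals in the third mark TTCNNNGAA, the GAS element bound by STAT proteins. Psmb5 lies at chr14:54617996-54618245, minus strand, Psmb6 at chr11:70525107-70525356, plus strand and Psmb8 at chr17:34197945-34198194, plus strand.
Psmb5: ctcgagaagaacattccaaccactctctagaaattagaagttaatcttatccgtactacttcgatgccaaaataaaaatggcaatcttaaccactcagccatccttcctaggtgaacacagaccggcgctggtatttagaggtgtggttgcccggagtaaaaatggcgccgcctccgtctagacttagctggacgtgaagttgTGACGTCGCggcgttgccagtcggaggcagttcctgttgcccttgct
Psmb6: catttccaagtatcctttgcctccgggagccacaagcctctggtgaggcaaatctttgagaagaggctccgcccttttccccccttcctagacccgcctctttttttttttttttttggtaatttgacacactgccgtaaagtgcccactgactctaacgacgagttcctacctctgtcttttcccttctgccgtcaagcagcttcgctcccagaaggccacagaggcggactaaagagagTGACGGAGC
Psmb8: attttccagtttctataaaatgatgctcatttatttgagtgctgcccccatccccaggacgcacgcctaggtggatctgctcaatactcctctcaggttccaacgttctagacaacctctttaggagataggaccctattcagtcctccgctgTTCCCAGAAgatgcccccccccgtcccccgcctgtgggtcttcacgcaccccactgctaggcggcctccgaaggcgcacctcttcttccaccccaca

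Psmb5 and Psmb6, with ratios of -1.76 and 1.58, both hold the antioxidant element. It was found on either strand in 5 of the 34 members with a listed promoter (14.7%) and in 11.5% of 27025 genes. The 5 were Psmb5, Psmb6, Psmc6, Psmd9 and Psmd12, of which 3 had ratios above 0. The GAS motif was found in Psmb8 alone among the 34, and in 8.13% of all genes. The interferon-stimulated response element (ISRE) was in 3 of the 34 (8.82%) and 3.46% of all genes, and CCAAT in 13 (38.2%) and 37.5%. The motifs were first searched in 300 bases, with the 50 after the start included, and the counts of the 250 bases before it were taken afterwards. In 300 bases the antioxidant element was in 6 of the 34 (Psme4 added; 13.99% of all genes), GAS in 2 (Psmd2 added, with a ratio of -1.27; 9.55%), the ISRE in 4 (Psme1 added; 3.99%) and CCAAT in 13 (41.1%). That GAS was in Psmb8 alone therefore holds for the shorter window only. A match is a stretch of letters and not a bound site.

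The ATPase ring, which unfolds the substrate and drives it into the barrel, split evenly, with 3 genes above 0 and 3 below. Psmc3 had the highest ratio of all members, with 45929 in the primitive and 8797 in the maturing sample, a ratio of 2.38 from a single probe set. Psmc4 and Psmc5 had ratios of 0.84 and 0.88, and the second probe set of Psmc4 gave 1.03. Psmc6 read 2112 and 4378, a ratio of -1.05, with a second probe set at a bound of -0.29. Psmc1 and Psmc2 had ratios of -0.73 and -0.38, and the second probe set of Psmc2 stood at -0.80. The 6 ATPases are present in equal number in the particle, and their ratios ran from -1.05 to 2.38.

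The non-ATPase genes of the regulatory particle were mostly lower in the primitive sample, 10 of 14. In the base, the scaffold gene Psmd2 read 2487 in the primitive and 5994 in the maturing sample, a ratio of -1.27, and its partner Psmd1 had a ratio of -0.32. The ubiquitin receptor gene Psmd4 read 399, under the floor, and 1114, and was at least 2.53-fold higher in the maturing sample, but another of its probe sets gave a bound of 0.15 in the other direction. All 3 base genes were below 0.

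The lid holds the enzyme that cuts ubiquitin off. Its gene, Psmd14, read 7409 in the primitive and 9839 in the maturing sample, a ratio of -0.41, and Psmd7, its partner in the enzyme, had a ratio of -0.56. Psmd6 had the lowest ratio of all members. It read 616 and 4102, a ratio of -2.74, and its second probe set gave -1.81. Psmd11 read 3679 and 9157, a ratio of -1.32, but its other measured probe sets gave -0.01, -0.02 and a bound of -0.51, so its place past 2-fold rests on 1 of 4 probe sets. Psmd3 had a ratio of -0.94, and Psmd13 was at a bound of -0.58. Psmd8 and Psmd12 were above 0, at 0.59 and 0.95. The smallest lid subunit, encoded by Sem1, is not a member by symbol and had a ratio of 1.22. The lid subunits thus did not share a direction, as 3 of 9 were above 0 with Sem1 counted.

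The last 3 Psmd genes encode chaperones that help assemble the base and leave the finished particle. Their ratios went apart. Psmd10, also called gankyrin, read 4688 in the primitive and 984 in the maturing sample, a ratio of 2.25. Psmd5 read 129, under the floor, and 1839, and was at least 4.17-fold higher in the maturing sample. Psmd9 had a ratio of 0.15 and a second probe set at a bound of -0.26. Leaving out these 3 and Psma8 left a median ratio of 0.53 for the other 37 members.

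The 14 Psmd genes were also set in order of the size of their proteins, an order from general knowledge. The 7 smaller ones had a median ratio of -0.41, with 3 above 0, and the 7 larger ones had -1.27, with Psmd12 above 0. These groups overlapped widely, from -1.34 to 2.25 and from -2.74 to 0.95, with SDs of 1.16 and 1.19. Psmd1, the largest, stood at -0.32, and the smaller Psmd4 and Psmd13 at bounds of -1.34 and -0.58. Without Psmd5, Psmd9 and Psmd10 the medians were -0.56 and -1.11. Over genes above the floor on each array the median of the smaller ones was 0.15. The core subunits are small proteins as well, so class and size cannot be told apart across the particle. The cDNA libraries had been amplified and size-selected, and the part of transcript length in these ratios was not tested. For the actin control, the signal of the 3′ probe set over that of the 5′ one was 2.07 on the primitive and 1.61 on the maturing array. For the Gapdh control it was 0.71 and 0.70.

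**Figure D2:**
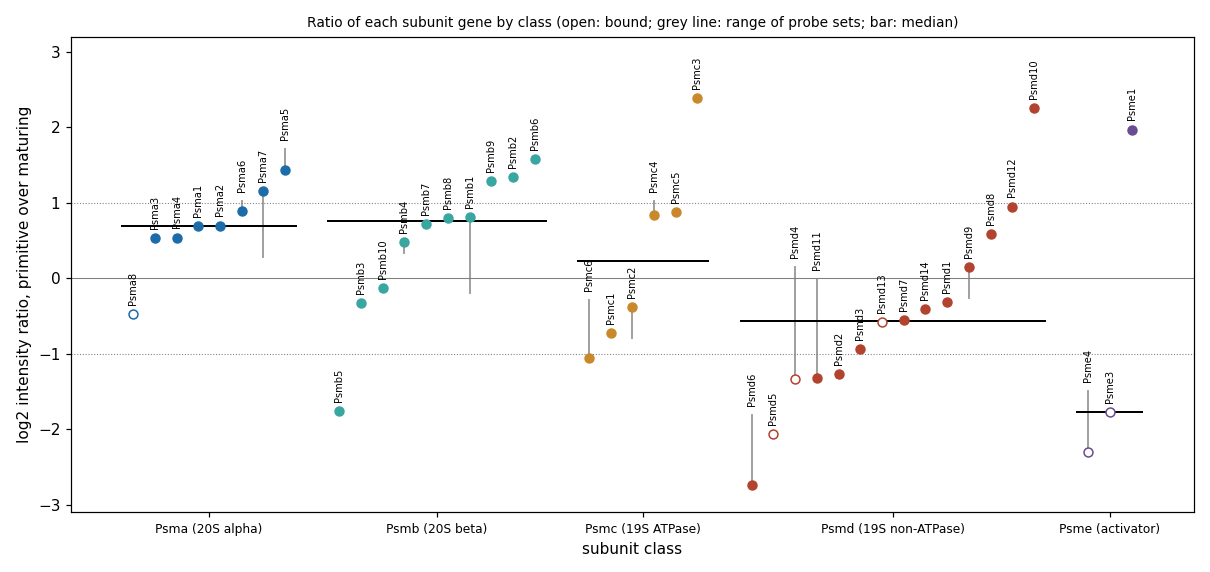
Log2 ratio of primitive over maturing intensity for each subunit gene, by class. Filled circles are genes above the floor on each array, open circles are bounds, grey lines span the measured probe sets of a gene, and black bars are class medians, from 0.75 for Psmb to -1.77 for Psme; dotted lines mark 2-fold.

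The 3 activator genes went in opposite directions. Psme1 encodes the alpha subunit of PA28, an interferon-inducible cap that acts with the immunoproteasome. It read 13673 in the primitive and 3491 in the maturing sample, a ratio of 1.97. Psme3, which encodes the nuclear PA28 gamma, read 81.6, under the floor, and 1504, and was at least 3.41-fold higher in the maturing sample. Psme4, which encodes PA200, a large cap found mostly in the nucleus, read 401, under the floor, and 2184, and was at least 4.95-fold higher in the maturing sample. Its other 2 probe sets gave -1.50 and a bound of -1.56, the same way. By these probe sets, the cap gene tied to the immunoproteasome read higher on the primitive array and both nuclear cap genes on the maturing array. Psme1 has a single probe set, and the other probe sets of Psme3 were under the floor on both arrays. The median of -1.77 for the class rests on the bounds of Psme3 and Psme4, and Psme1 alone was above the floor on each array.

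Regulatory-particle genes below 0 often carried the letters CCGGAAG, the core of sites for ETS-family factors, just before their start. The motif was found on either strand in 11 of 34 members (32.4%), against 7.83% of all genes and 14.6% of the measured genes with a listed promoter. Of the 11, 9 were below 0, namely Psmc1, Psmc2, Psmc6, Psmd2, Psmd4, Psmd6, Psmd11, Psme3 and Psme4, and Psma6 and Psmd12 were above it. Psmd4, Psme3 and Psme4 were at bounds. Another probe set of Psmd4 gave a bound of 0.15, and others of Psmd11 gave -0.01, -0.02 and a bound of -0.51. The median ratio of the 11 was -1.27, and that of the 23 other members was 0.59. Motif and class went together, with 1 of 14 core genes, 8 of 17 Psmc and Psmd genes and 2 of 3 Psme genes holding it. Within Psmc and Psmd alone, the 8 genes with it had a median of -1.16 and the 9 without it 0.15. Over all measured genes the medians were -0.04 for 1041 genes with the motif and 0.07 for 6105 without it, so the difference seen among the members was not seen at that size across the array. In the 300 bases searched first, 12 of the 34 held it (35.3%, Psmd13 added), against 9.93% of all genes, and their median was -1.16 against 0.64 for the other members. The motifs, 5 in all, were chosen after the values had been seen, so these values are a description with no test. The upstream 250 bases are shown for the lowest member and for another lid gene with the motif, beside those of Psma6, a core gene with the motif and a ratio of 0.90. The capitals mark CCGGAAG or its reverse complement CTTCCGG. Psmd6 lies at chr14:14120946-14121195, minus strand, Psmd11 at chr11:80428365-80428614, plus strand and the start of Psma6 that holds the motif at chr12:55398575-55398824, plus strand.
Psmd6: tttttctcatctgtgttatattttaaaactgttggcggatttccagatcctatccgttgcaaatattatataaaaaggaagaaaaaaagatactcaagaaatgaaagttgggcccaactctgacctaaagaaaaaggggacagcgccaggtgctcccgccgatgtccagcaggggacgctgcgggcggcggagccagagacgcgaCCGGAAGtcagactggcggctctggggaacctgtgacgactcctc
Psmd11: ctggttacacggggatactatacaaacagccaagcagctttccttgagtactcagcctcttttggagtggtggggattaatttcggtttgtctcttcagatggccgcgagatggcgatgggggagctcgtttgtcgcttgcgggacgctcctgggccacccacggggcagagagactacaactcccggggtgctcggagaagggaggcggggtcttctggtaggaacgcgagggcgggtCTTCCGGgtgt
Psma6: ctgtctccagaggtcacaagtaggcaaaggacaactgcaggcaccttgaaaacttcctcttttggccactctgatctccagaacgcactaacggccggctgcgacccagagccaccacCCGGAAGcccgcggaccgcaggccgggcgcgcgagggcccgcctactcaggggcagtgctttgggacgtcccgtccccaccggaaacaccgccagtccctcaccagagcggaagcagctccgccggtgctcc

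The ratios were also higher at the brightest signal. Over all genes above the floor on each array, the 553 in the brightest decile had a median ratio of 0.62. It was -0.02 in the fifth decile and 0.09 in the lowest. Of the members, 17 were in that brightest decile, 13 of them core genes, and these 13 had a median of 0.79 and were all above 0, as were 67.8% of the 553 genes. Their SD was 0.36, against 1.26 for the 553. The decile was cut on the mean of both arrays. It left out all 4 core genes below 0 (Psma8, Psmb3, Psmb5 and Psmb10) and Psmb9 (1.29). The direction and SD of the 13 therefore do not describe the whole core, as the SD over all 18 core genes was 0.82. The 24 members outside the brightest decile had a median of -0.52. After lowess, which removes a trend with signal, the medians were 0.25 for Psma, 0.40 for Psmb, 0.19 for Psmc and -0.66 for Psmd, with all genes at 0.04. The order of core over non-ATPase genes was kept, and the core median was nearer to that of all genes. Core minus regulatory particle (Psmc and Psmd) was 1.19 in the medians, from 0.83 to 1.19 over 9 other ways of scaling, setting the floor or choosing probe sets and genes, 1.10 after scaling to the hybridisation controls and 1.27 without Psma8, Psmd5, Psmd9 and Psmd10.

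**Figure D3:**
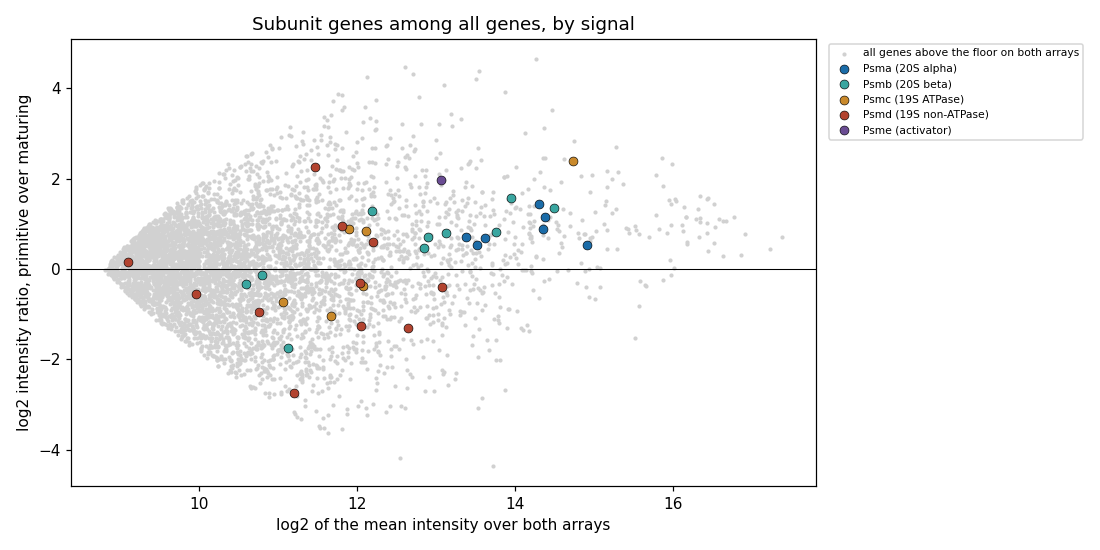
Log2 ratio of primitive over maturing intensity against the log2 mean intensity of both arrays, for 5525 genes above the floor on each array (grey) and the 35 subunit genes among them (coloured by class). The Psma and most Psmb genes sit in a narrow band above 0 at high signal, while Psmc and Psmd genes at medium signal lie on both sides of it.

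**Figure D4:**
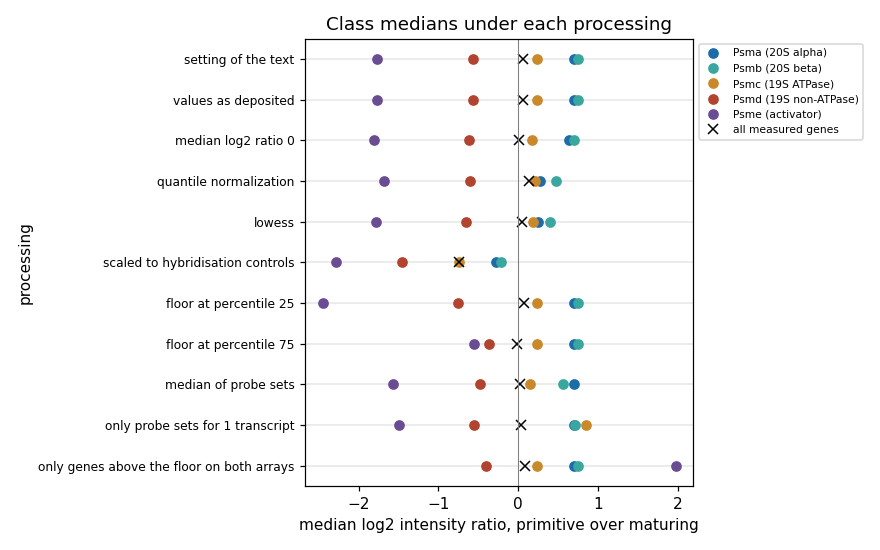
Median log2 ratio of each subunit class under the setting of the text and 10 alternatives, with the median of all measured genes as crosses. Psma and Psmb lie to the right of all genes and Psmd to the left in every row, and scaling to the hybridisation controls moves all of them to the left, with all genes at -0.74.

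Genes that work with the particle were taken from lists that were written with earlier results of these data known. Of 9 assembly chaperones and inhibitors, the 3 Psmd chaperones included, 5 were at least 2-fold higher in the primitive sample and 2 in the maturing sample. Of all measured genes, 15.6% and 17.6% were. The list had a median ratio of 1.06. Psmg1 and Psmg2, which pair to build the alpha ring, read 10955 against 1182 (3.21) and 8791 against 1753 (2.33), and the second probe set of Psmg2 stood at -0.69. Pomp, which joins the beta subunits in the assembling core, read 22019 and 9291 (1.24), and Psmg3 had a ratio of 1.06. The inhibitor gene Psmf1 was at least 2.92-fold higher in the maturing sample, with another of its probe sets at a bound of 0.08. The list's median was 0.09 on the scale of the hybridisation controls. It was 0.13 with only probe sets for 1 transcript, where 5 of 8 genes were above 0.

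Among 8 measured genes of other particle-binding proteins, 2 were at least 2-fold higher in the primitive sample, against 15.6% of all genes. They were Sem1 and Txnl1 (1.57, with another probe set at 0.17). Against 17.6% of all genes, another 3 were at least 2-fold higher in the maturing sample. These were the deubiquitinase gene Usp14, at -1.04 and -2.21 over its probe sets, Zfand2a (-1.11, with another probe set at 1.03) and Ecpas, a scaffold that was at least 4.57-fold higher in the maturing sample. Genes that carry ubiquitinated proteins to the particle had a median of 0.08 over 8 genes. Rad23b stood at 1.78, with a second probe set at 0.21, and the p97 gene Vcp at 0.02, while the p97 cofactor genes Nsfl1c and Nploc4 stood at -1.53 and -1.06. Ubiquitin genes and their activating enzymes were not analysed here.

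Among 7 genes for factors that control the transcription of proteasome subunits, the activator genes Nfe2l1 and Nfe2l2 were both lower in the primitive sample. Nfe2l1 read 718 in the primitive and 1477 in the maturing sample, a ratio of -1.04, and Nfe2l2 read 2477 and 8523, a ratio of -1.78, each from a single measured probe set. Of their small MAF partners, Mafg stood at 1.84 with a second probe set at -0.12, Mafk at 0.84 and Maff at a bound of 0.90.

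Genes for MHC class I loading mostly went the other way from Psmb8, Psmb9 and Psme1. Of 7 measured, 1 was above 0. This was the light chain gene B2m, with 136985 in the primitive and 50685 in the maturing sample (1.43). Tap1, the peptide transporter gene that lies between Psmb9 and Psmb8 in the genome, had a ratio of -0.15, against 1.29 and 0.79 for its neighbours. Tapbp and Canx both stood at -1.91, with other probe sets nearer to 0, up to -0.0006 for Tapbp and -0.35 for Canx. Pdia3 stood at -2.41 from a single probe set, Calr at -0.74 and Erap1 at a bound of -0.47. Tap2 and Tapbpl were under the floor on both arrays. Of 13 measured interferon response genes, 6 were above 0, with a median of -0.08. Gbp2 and Gbp3 were at least 5.31-fold and 4.70-fold higher in the maturing sample, and Ifi35 and Bst2 at least 3.06-fold and 2.67-fold higher in the primitive sample.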

How the data were processed

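Expression was measured in 1 primitive and 1 maturing HSC sample, grouped by their titles. The deposited values are MAS5 intensities on a linear scale, per the submitters' processing notes; no version is stated there. Their 2% trimmed means were 1000.57 and 1000.39, so the authors' deposited intensities were already scaled. Here the arrays were brought to a common trimmed mean, and a floor was set at the median of all non-control values. The brightest probe set, by mean intensity, stood for each gene, named through the platform annotation. With 1 array per group, no p-value is given, and the number of arrays limits the precision.

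Probe sets of 1 gene differed with an SD of 0.82 (log2 scale, 1318 genes), so ratios near 2-fold are of that size. Members, lists and settings were chosen with earlier results of these data known. Values were given in full for members at least 2-fold apart, catalytic, immunoproteasome and activator genes, and the brightest gene of each class. Protein lengths were planned from RefSeq but no table of them was used here, so the size order of the Psmd proteins is from general knowledge. Promoters of 34 of the 41 members were matched by symbol to RefSeq (GRCm38.p6). The steps were tested on copies of the primitive values into which noise and, for bright genes, known fold changes had been put. That test did not cover genes near the floor or differences between the 2 arrays. Computation used numpy 2.4.6 and scipy 1.17.1 under Python 3.11.15, with tables in pandas 2.3.3, lowess from statsmodels 0.14.6 and plots from matplotlib 3.10.9. The alternatives were 10 that were planned (5 scalings, 2 floors, 2 choices of probe sets, and genes above the floor on each array) and 2 added after seeing the data (4 members left out; a promoter window of 300 bases).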

Additional observations from a re-analysis of the deposited data

How the results depend on the processing

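No paired analysis was possible because each group has 1 array. Without replicates, neither depth of signal nor a spread between samples sets a limit on single ratios, and ratios of genes near the floor of 441.0 are the least certain. Over 9 other ways of scaling, setting the floor or choosing probe sets and genes, the median ran from 0.25 to 0.70 for Psma, 0.40 to 0.75 for Psmb, 0.15 to 0.84 for Psmc, -0.75 to -0.36 for Psmd and -2.44 to 1.97 for Psme. Scaling to the hybridisation controls gave 2 and 18 members at least 2-fold higher in the primitive and in the maturing sample, against 4.22% and 39.6% of all genes, and 0 and 8 at 4-fold, against 0.9999% and 13.5%, with medians of -0.50 for all members, -0.28 for Psma, -0.22 for Psmb, -0.74 for Psmc and -1.46 for Psmd. Quantile normalization and lowess each left 5 members (12.2%) at least 2-fold higher in the primitive sample, against 17.4% and 14.9% of all genes. At 4-fold each left 1 (2.44%), against 3.58% and 3.37%. They turned Psmb9 minus Psmb6 to 0.12 and 0.17. With the floor at percentile 25, 5 members (12.2%) were at least 4-fold higher in the maturing sample, against 8.89% of all genes. The Psme median there was -2.44. At percentile 75, 0 were at least 4-fold higher in the maturing sample, against 2.53% of all genes. The Psme median was then -0.55, and the bounds shrank to -1.09 for Psme4, -0.84 for Psmd5 and -0.55 for Psme3. Over genes above the floor on each array, 5 members (14.3%) were at least 2-fold higher in the maturing sample, against 15.2% of all genes. At 4-fold it was 1 (2.86%), against 3.49%. The Psme value was 1.97 (Psme1 alone) and that of the smaller Psmd proteins 0.15, since the bounds are left out. With only probe sets for 1 transcript, 30 members were measured. Of these, 5 (16.7%) were at least 2-fold higher in the maturing sample, against 17.4% of all genes. In the primitive sample 1 (3.33%) was at least 4-fold higher, against 3.13%. Leaving out Psma8, Psmd5, Psmd9 and Psmd10 was an alternative chosen after seeing the data. It left 1 member (2.70%) at least 4-fold higher in the primitive sample, against 3.44% of all genes. The cause of the changes under quantile normalization, lowess and the hybridisation controls was not tested.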

Other observations

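Other complexes and enzymes of protein turnover and energy supply were read from the same arrays. The chaperonin, a folding machine that is also built of stacked rings of related subunits, was lower in the primitive sample for 8 of 8 measured genes, with a median ratio of -1.33 and a range from -3.08 (Cct6a) to -0.42 (Cct7). Cct5 read 5507 in the primitive and 22216 in the maturing sample. Probe sets of Cct3 went in both directions, from -1.83 to 0.96. The 17 core proteasome genes other than Psma8 were above 0 in 14 cases, with a median of 0.71. Respiratory complex I had 27 of 32 measured genes above 0, with a median of 0.98. Probe sets of Ndufc1, Ndufs4 and Ndufs7 went in both directions. Genes of ubiquitin-conjugating enzymes, which attach the tag that the proteasome reads, had 14 of 22 above 0, with a median of 0.20. At least 2-fold higher in the primitive sample were 7, against 15.6% of all measured genes, and in the maturing sample 1, against 17.6%. Probe sets of Ube2a, Ube2b and Ube2d3 went in both directions, and those of Ube2f, Ube2k, Ube2v2 and Ube2w did not. On the scale of the hybridisation controls, complex I had 16 of 33 genes above 0 and the conjugating enzymes 7 of 24. Of all measured genes, 19.95% were above 0 on that scale. The chaperonin had 0 of 8 above 0 there, and 1 of 6 with only probe sets for 1 transcript. These values stand side by side, and the differences between the groups of genes were not tested.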
